A study of Mus musculus with 24 samples.

Results

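The mitochondrial respiratory chain genes were taken as every row of the deposited table whose platform gene symbol began with Nduf, Uqcr, Atp5 or Cox4 to Cox8, or was Sdha, Sdhb, Sdhc or Sdhd. This rule found 93 rows for 93 genes, of 19572 rows that carried a gene. By symbol, 46 belonged to complex I (37 Nduf subunits, 8 Ndufaf assembly factors and Ndufa4l2), 4 to complex II, 8 to complex III, 18 to complex IV and 17 to complex V, the ATP synthase. Ndufa4 is counted here under complex I by its name, although its protein is now regarded as a subunit of complex IV. The 93 genes lie on 19 chromosomes, with at most 9 on any of them, and all were matched to RefSeq by gene ID. Subunits encoded in the mitochondrial DNA were not analysed here.

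The arrays measured total RNA of cerebellum, hippocampus and cerebral cortex from 4 mice that lack glutamine synthetase in the liver (KO) and from 4 wild-type (WT) mice, with 4 arrays in each of 6 groups. Glutamine synthetase binds ammonia to glutamate, and the series asks how raised ammonia changes the brain. The deletion is in the liver, the brain of the KO animals keeps the gene, and the row of the deleted gene itself was not analysed here. The sources used here name neither the Cre driver nor the animals' strain, age or sex.

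The respiratory chain sits in the inner mitochondrial membrane. Complexes I and II pass electrons from NADH and succinate to ubiquinone, complex III passes them on to cytochrome c, and complex IV passes them to oxygen. Complexes I, III and IV pump protons, and the ATP synthase uses the returning protons to make ATP. Neurons depend on this pathway for most of their ATP, and ammonia is known to disturb brain energy metabolism in experimental hyperammonemia. Several subunits of complex IV exist as a widely expressed form and a form restricted to certain tissues, such as Cox6a1 and the heart and muscle form Cox6a2.

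All values are deposited log2 values, and a difference is the difference of group means on that scale. Each of the 93 genes was tested with limma in a fit over all 24 arrays, with p-values adjusted over all 19572 rows (Benjamini-Hochberg) and a threshold of 0.05. Errors beside group means are SDs and errors beside differences are SEs, and each group had 4 arrays unless stated. Levels of different genes are not compared with each other, because each row has its own probes. For 10 of the 93 genes a value above 16 occurred, more than a 16-bit scanner can record for 1 probe, and 1 gene, Cox7b2, had a mean below 7.07, the 0.25 quantile of all row means.

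The regions carried their own markers, and 3 arrays stood apart. Genes of granule and Purkinje cells averaged between 13.7 and 15.5 in the 8 cerebellum arrays, and between 8.89 and 9.53 in the hippocampus and cortex arrays. Array KO 3 of the cerebellum had a residual SD of 0.357, against 0.152 to 0.266 in the other arrays. Its 12 granule and Purkinje genes averaged 13.7, against 14.96 to 15.5 in the other 7 cerebellum arrays, and 0 of them were highest there. Its 17 brainstem and spinal cord genes averaged 9.08 against 7.21 to 7.61, and 12 of them were highest in that array. Its 11 oligodendrocyte genes averaged 14.1 against 11.98 to 12.6, with 11 of 11 highest in it, and its 16 neuron genes averaged 15.3 against 14.2 to 14.7, with 11 highest. Its 9 microglia genes averaged 9.51 against 8.45 to 8.77, with 8 highest. In the cortex, KO 1 and KO 4 averaged 11.8 and 11.2 over 13 olfactory bulb genes, against 8.12 to 8.60 in the other 6 arrays. They averaged 14.80 and 14.99 over 16 neuron genes, against 15.02 to 15.19, and 9.38 each over 10 hippocampus genes, against 9.66 to 9.74. Over 12 granule and Purkinje genes they averaged 9.35 and 9.23, against 8.89 to 9.07. Between KO and WT in cerebellum and cortex, counts of higher means and medians over the 93 genes are given with and without these arrays. So are the differences printed for named genes. For the cortex, counts at an unadjusted p, medians by complex and groups without overlap are given with all arrays only. In tissue samples, fewer cells of a type and less RNA per cell cannot be told apart.

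**Figure D1:**
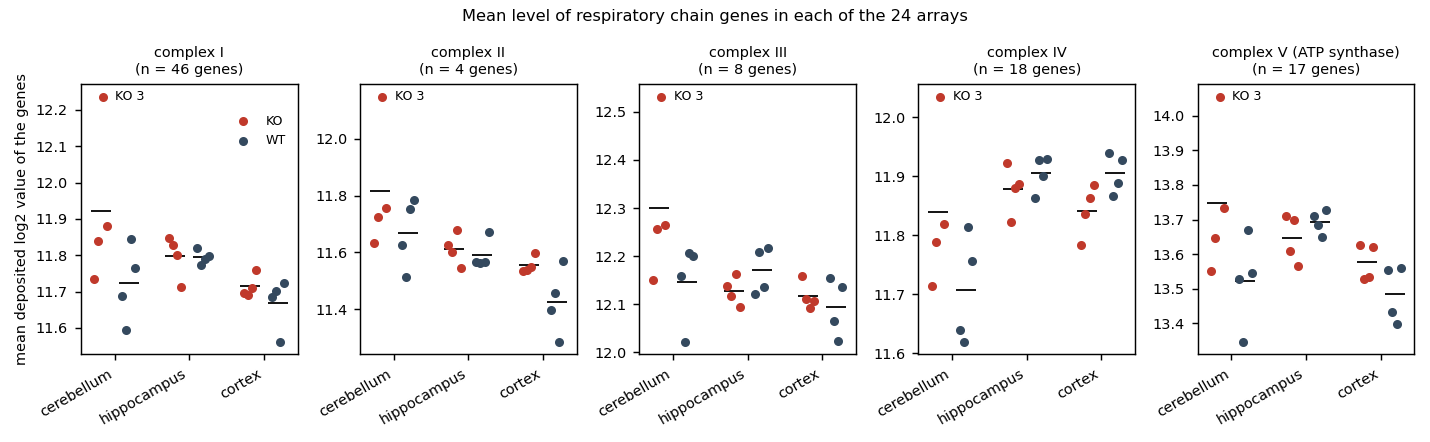
Mean deposited log2 value of the genes of each complex (vertical axis) in each of the 24 arrays, by region (horizontal axis), with KO left of WT in every region. Points are arrays and black lines are group means of 4 arrays. KO 3 of the cerebellum has the highest mean of its complex in all 5 panels, and the KO and WT points overlap in every hippocampus panel.

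In the cerebellum, respiratory chain genes were mostly higher in KO than in WT, by small amounts that did not pass the test. The mean over all 93 genes was 12.09, 12.19, 12.55 and 12.24 in KO 1 to KO 4, against 12.05, 11.95, 12.20 and 12.13 in WT 1 to WT 4. KO 3 lay above every WT array, while KO 1 lay below WT 3 and WT 4, and the groups averaged 12.27 ± 0.20 in KO and 12.08 ± 0.11 in WT. Of the 93 genes, 84 had a higher mean in KO and the median difference was 0.19, against 9620 of 19572 rows and a median of -0.004 over all rows. The array medians over all rows ran from 8.72 to 8.82, below the means of these 93 genes, and rows of similar level were not compared. With limma, 0 of 93 genes passed the adjusted threshold, and 0% of all rows did. At an unadjusted p under 0.05, 32 of 93 were higher in KO and 0 lower, where 5.97% of all rows were higher and 3.53% lower. The smallest adjusted p among the 93 was 0.435.

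These values depended on array KO 3 and on the scaling. After another quantile normalization of all arrays, 79 of 93 genes had a higher mean in KO, the median was 0.12, and at an unadjusted p under 0.05 there were 13 higher and 0 lower, against 4.41% and 4.49% of all rows under that scaling. With KO 3 left out, 77 of 93 genes had a higher mean in KO, the median difference was 0.11 and 4 genes were higher at an unadjusted p under 0.05 and 0 lower, against 2% and 1.51% of all rows. The smallest adjusted p was then 0.999. KO 3 was the highest of the 8 cerebellum arrays for 74 of the 93 genes, against 23.8% of all rows, and WT 2 was the lowest for 46 of the 93, against 23% of all rows. With both of these arrays left out, 60 of 93 genes had a higher mean in KO and the median difference was 0.06. The SD over all rows was the highest of the 24 arrays in KO 3 of the cerebellum, at 2.64, and the lowest in WT 2, at 2.46. The part of these spreads in the differences between KO and WT was not tested. The part of the brainstem and oligodendrocyte genes of KO 3 in its high respiratory chain values was not tested either.

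**Figure D2:**
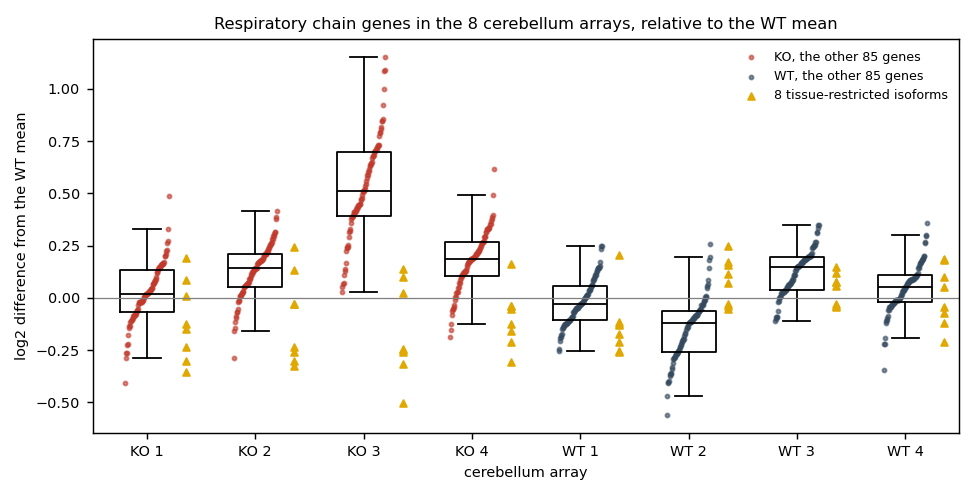
Log2 difference of each gene from its WT mean (vertical axis) in the 8 cerebellum arrays (horizontal axis), KO arrays first. Dots are the 85 genes other than the tissue-restricted isoforms with boxes for their median and quartiles, and triangles are the 8 isoforms. The box of KO 3 lies above those of the other 7 arrays, while 0 of the 8 isoforms are highest in that array.

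In complex I, the entry point for electrons from NADH, 43 of 46 genes had a higher mean in KO cerebellum with a median difference of 0.21, and without KO 3 these were 38 of 46 and 0.11. Ndufa10, an accessory subunit of the membrane arm, read 12.89, 12.87, 13.81 and 13.28 in the KO arrays, against 12.42, 12.46, 13.01 and 12.76 in the WT arrays. KO 3 was highest and WT 3 lay above KO 1 and KO 2. The difference was 0.55 ± 0.16, the largest of the 93 genes, with an unadjusted p of 0.00186 and an adjusted p of 0.435 in limma. Without KO 3 it was 0.35 ± 0.14. Ndufb2, another accessory subunit of the membrane arm, read 12.04, 12.22, 12.06 and 12.24 in KO against 11.98, 11.75, 11.75 and 11.88 in WT. Here all KO arrays lay above all WT arrays, and KO 3 did not stand out. The difference was 0.30 ± 0.10 with KO 3 and 0.33 ± 0.11 without it, with adjusted p-values of 0.435 and 0.999 in limma.

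Groups that did not overlap were seen for 4 of 93 genes in the cerebellum, all higher in KO, where 1.93% of all rows had KO above WT and 1.57% had KO below WT. Beside Ndufb2 these were Ndufa5, Uqcrh and Cox7a2l. Ndufa5, a subunit of the arm that faces the matrix and named here after its values were seen, read 12.99, 13.10, 13.49 and 13.18 in KO against 12.75, 12.82, 12.89 and 12.96 in WT. The lowest KO value was just above the highest WT value, and the difference was 0.33 ± 0.11 with KO 3 and 0.23 ± 0.11 without it. Without KO 3 the KO arrays of the same 4 genes lay above WT, as in 2.88% of all rows, and those of the testis isoform Cox6b2 lay below WT, as in 2.2% of all rows.

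Complex II, which is also the succinate dehydrogenase of the tricarboxylic acid cycle, had 4 of 4 genes with a higher mean in KO cerebellum, a median difference of 0.14, and 3 of 4 and 0.06 without KO 3. Sdha, its flavoprotein, read 10.68, 10.59, 11.14 and 10.85 in KO against 10.40, 10.41, 10.58 and 10.70 in WT, a difference of 0.29 ± 0.12 with an adjusted p of 0.473 in limma. KO 1 and KO 2 lay below WT 4, KO 3 was highest, and without KO 3 the difference was 0.18 ± 0.12. Sdhb, its iron-sulfur subunit, differed by 0.18 ± 0.11, by 0.10 ± 0.12 without KO 3, and by 0.0796 without WT 2 (Sdhb, KO against WT in cerebellum). The membrane anchors Sdhc and Sdhd differed by 0.02 ± 0.14 and 0.09 ± 0.10, and neither difference exceeded its SE. Without KO 3 they were -0.15 ± 0.12 for Sdhc, on the other side of 0, and 0.01 ± 0.10 for Sdhd.

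Complex III had 8 of 8 genes with a higher mean in KO cerebellum, a median difference of 0.15, and 7 of 8 and 0.08 without KO 3. Uqcrc1, a core subunit, read 11.87, 11.85, 12.37 and 11.81 in KO against 11.51, 11.50, 11.84 and 11.73 in WT. KO 3 stood above the rest, and the other KO arrays were level with the highest WT array. The difference was 0.33 ± 0.11 with an adjusted p of 0.435 in limma, and 0.20 ± 0.10 without KO 3. Uqcrh, the hinge subunit beside cytochrome c1, read 14.67, 14.81, 15.27 and 14.82 in KO against 14.53, 14.46, 14.67 and 14.67 in WT. The groups just failed to overlap, and the difference of 0.31 ± 0.11 had an adjusted p of 0.435 in limma, and was 0.18 ± 0.10 without KO 3.

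Complex IV split into widely expressed subunits and tissue-restricted isoforms. Over its 18 genes, 12 had a higher mean in KO cerebellum with a median difference of 0.24, and 12 and 0.12 without KO 3. Cox7a2l, a protein that joins complexes III and IV into supercomplexes, read 11.43, 11.72, 12.19 and 11.61 in KO against 11.21, 11.34, 11.37 and 11.42 in WT. All 4 KO arrays lay above the WT arrays, KO 1 by the least. The difference was 0.40 ± 0.12 with an adjusted p of 0.435 in limma, and 0.25 ± 0.11 without KO 3. Cox5a, an accessory subunit on the matrix side, read 13.08, 13.22, 13.75 and 13.09 in KO against 12.86, 12.63, 13.09 and 13.05 in WT. KO 3 was highest, KO 1 and KO 4 were level with WT 3, and the difference was 0.38 ± 0.13 with KO 3 and 0.22 ± 0.12 without it. Cox6c read 15.994, 16.004, 16.37 and 15.96 in KO against 15.76, 15.54, 15.98 and 15.86 in WT, and KO 4 lay below WT 3. Its difference was 0.30 ± 0.11 with KO 3 and 0.20 ± 0.10 without it.

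Of 8 isoforms that are mainly expressed in other tissues, 1 had a higher mean in KO cerebellum and the median difference was -0.15, while 83 of the other 85 genes were higher. The 8 were Cox4i2 of lung, Cox6a2, Cox7a1 and Cox8b of heart and muscle, Cox6b2, Cox7b2 and Cox8c of testis, and the hypoxia-inducible Ndufa4l2. This set was put together after its values had been seen, so it is a description. Without KO 3, 1 of 8 isoforms and 76 of the other 85 genes were higher in KO. Among pairs, Cox4i1 differed by 0.29 ± 0.15 and Cox4i2 by -0.21 ± 0.11, and without KO 3 by 0.11 ± 0.13 and -0.19 ± 0.12. Cox8b read 7.15, 7.42, 7.13 and 7.14 in KO against 7.65, 7.39, 7.42 and 7.33 in WT, a difference of -0.24 ± 0.12 with an adjusted p of 0.53 in limma, and of -0.21 ± 0.13 without KO 3. Except for Cox6a2, the values of these isoforms lay between 6.40 and 8.798 in every array, while the medians of the arrays ran from 8.72 to 8.82.

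Complex V had 17 of 17 genes with a higher mean in KO cerebellum, with and without KO 3, and median differences of 0.24 and 0.14. Atp5o, the stalk protein that ties the catalytic head to the membrane part, read 13.22, 13.22, 13.77 and 13.31 in KO against 12.92, 13.03, 13.23 and 13.03 in WT. WT 3 was level with KO 1 and KO 2, and KO 3 was highest. The difference was 0.33 ± 0.12 with an adjusted p of 0.435 in limma, and 0.20 ± 0.11 without KO 3. Atp5md, a small membrane subunit, read 15.19, 15.39, 15.91 and 15.42 in KO against 15.08, 15.08, 15.43 and 15.14 in WT, and WT 3 lay above 3 of the 4 KO arrays. Its difference was 0.30 ± 0.12 with KO 3 and 0.15 ± 0.10 without it. The genes Atp5g1, Atp5g2 and Atp5g3, which encode the same mature c-ring protein, differed by 0.26 ± 0.12, 0.18 ± 0.11 and 0.11 ± 0.13, and without KO 3 by 0.12 ± 0.10, 0.06 ± 0.10 and 0.01 ± 0.13.

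**Figure D3:**
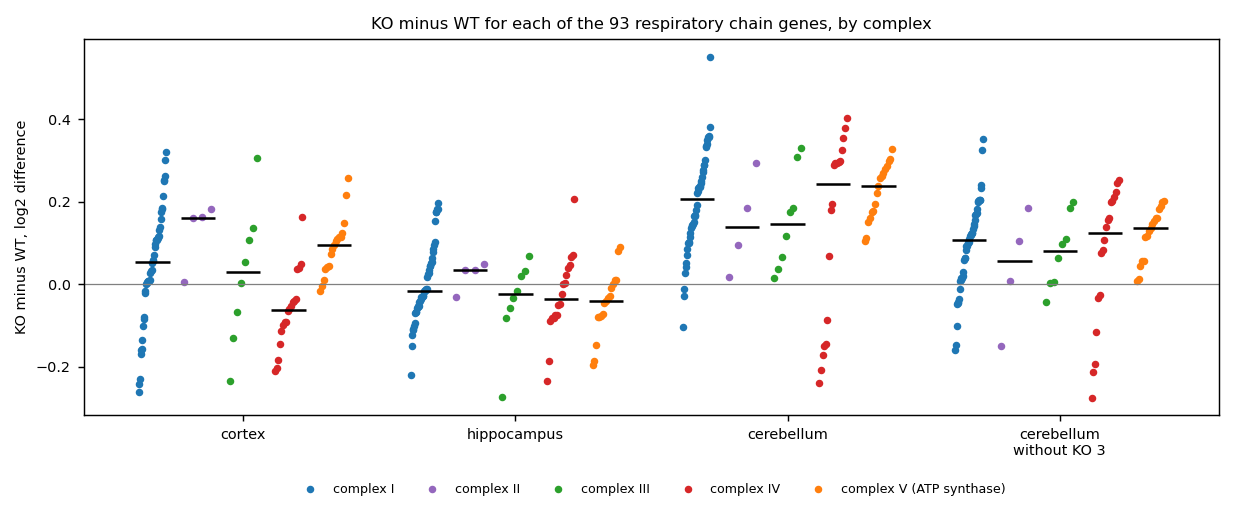
Difference of KO minus WT on the log2 scale (vertical axis) for each of the 93 genes in cortex, hippocampus, cerebellum and cerebellum without KO 3 (horizontal axis), coloured by complex. Points are genes and black lines are medians of a complex. Medians of the cerebellum run from 0.14 to 0.24 and those without KO 3 from 0.06 to 0.14, while in the cortex complex IV lies at -0.06.

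In the cortex, 62 of 93 genes had a higher mean in KO, with a median difference of 0.04 against -0.01 over all rows. After another quantile normalization these were 51 of 93 and 0.01, without WT 3 they were 51 of 93 and 0.02, and without WT 4 they were 62 of 93 and 0.06. With limma, 0 of 93 genes passed the adjusted threshold and 0% of all rows did, with a smallest adjusted p of 0.493. At an unadjusted p under 0.05, 6 genes were higher and 2 lower, against 4.12% and 3.34% of all rows. Medians by complex were 0.05 for complex I, 0.16 for II, 0.03 for III, -0.06 for IV and 0.10 for V. In complex IV, 4 of 18 genes had a higher mean in KO, and without KO 1 and KO 4, the arrays with olfactory bulb genes, 6 of 18. Without these arrays 55 of 93 genes were higher with a median of 0.03, and 0 passed. With all arrays, KO lay above WT without overlap for 8 of 93 genes, against 1.71% of all rows, and below WT for 1, Ndufb7, against 1.97%. The 8 genes were Uqcrfs1, Atp5pb, Atp5g2, Ndufaf3, Ndufaf5, Ndufa9, Ndufb3 and Ndufb4b, a near-identical copy of Ndufb4.

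Uqcrfs1, the Rieske iron-sulfur protein of complex III, had the smallest p in the cortex. It read 11.78, 11.65, 11.59 and 11.43 in KO against 11.22, 11.36, 11.23 and 11.42 in WT, and the groups only just failed to overlap. The difference was 0.31 ± 0.10 with an adjusted p of 0.493 in limma, and 0.31 ± 0.12 without KO 1 and KO 4. Atp5pb, subunit b of the stalk of the ATP synthase, read 13.32, 13.44, 13.36 and 13.37 in KO against 13.30, 12.97, 12.95 and 13.25 in WT, a difference of 0.26 ± 0.11, and of 0.28 ± 0.14 without KO 1 and KO 4. Uqcrq, a small subunit of complex III, read 11.81, 11.61, 11.70 and 11.88 in KO against 12.08, 11.84, 12.01 and 12.01 in WT, and its difference was -0.23 ± 0.11, and -0.33 ± 0.14 without KO 1 and KO 4. Of the 8 assembly factors of complex I, 4 had an unadjusted p under 0.05, of which 3 were higher in KO. Among all rows, 4.12% were higher and 3.34% lower at that threshold. Ndufaf3 differed by 0.25 ± 0.10, Ndufaf4 by 0.30 ± 0.14, Ndufaf5 by 0.25 ± 0.11 and Ndufaf2 by -0.26 ± 0.12, with adjusted p-values between 0.589 and 0.651 in limma. Without KO 1 and KO 4 the differences were 0.29 ± 0.12, 0.29 ± 0.16, 0.20 ± 0.13 and -0.27 ± 0.14 in that order. Their unadjusted p-values were then 0.0302, 0.0828, 0.158 and 0.0707 in limma. The other genes of smallest p per complex had smaller differences without these arrays. Ndufs4 went from 0.32 ± 0.13 to 0.17 ± 0.15, Atp5c1 from 0.22 ± 0.12 to 0.16 ± 0.15 and Sdhd from 0.18 ± 0.10 to 0.10 ± 0.13. Sdhb went from 0.16 ± 0.11 to 0.13 ± 0.14, Cox6a2 from -0.20 ± 0.12 to -0.04 ± 0.14 and Cox8c from -0.21 ± 0.12 to -0.13 ± 0.15.

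In the hippocampus 38 of 93 genes had a higher mean in KO and the median difference was -0.02, which turned to 0.0076 with 49 of 93 higher when KO 4 was left out, and was -0.04 with 32 of 93 higher without KO 1. With limma 0 of 93 passed, 0% of all rows did, and every adjusted p among the 93 was 1. At an unadjusted p under 0.05, 0 genes were higher and 1 lower, against 1.2% and 0.904% of all rows. That gene was Uqcrc2, a core subunit of complex III, which read 10.67, 10.90, 10.80 and 10.84 in KO against 11.01, 11.08, 11.02 and 11.19 in WT. All KO arrays lay below all WT arrays, and the difference was -0.27 ± 0.11. Groups did not overlap for 4 genes in all: Uqcrc2 and Atp5md had KO below WT, as 0.981% of all rows did, and Cox6a1 and Ndufaf6, an assembly factor of complex I, had KO above WT, as 1.19% of all rows did.

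Over the 3 regions of each animal, with 8 animals as the units, 80 of 93 genes had a higher mean in KO and the median difference was 0.08, against 0.001 over all rows. After another quantile normalization these were 71 of 93 and 0.04, with 9 of 18 in complex IV. With limma, 0 of 93 passed and 0% of all rows did, with a smallest adjusted p of 0.72. At an unadjusted p under 0.05, 10 of 93 genes were higher and 0 lower, against 3.82% and 2.98% of all rows. With the cerebellum of KO 3 left out and its other regions kept, 67 of 93 were higher and the median difference was 0.03. Whether the KO effect differed between regions was tested in the same fit with an F statistic, and 0 of 93 genes and 0% of all rows passed. At an unadjusted p under 0.05 there were 9 of 93, or 9.68%, against 4.97% of all rows, and without KO 3 of the cerebellum there were 3 of 93 against 3.8% of all rows. A larger KO effect in the cerebellum than elsewhere was therefore not shown for any of these genes.

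Regions differed for many more of the genes. In WT, cerebellum and cortex differed for 32 of 93 genes, against 35.7% of all rows, of which 18 were higher in cerebellum, where 3730 of 19572 rows (19.1%) were, and 14 were lower, where 16.6% of all rows were. The shares of higher and lower genes among the 93 were close to those among all rows. The median over the 93 genes was -0.02, and it became 0.02 when each array was centred on its median. Genes that passed lay on both sides in complexes I, III, IV and V, with 2 higher and 6 lower and a median of -0.18 in complex IV, while 1 gene passed in complex II.

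**Figure D4:**
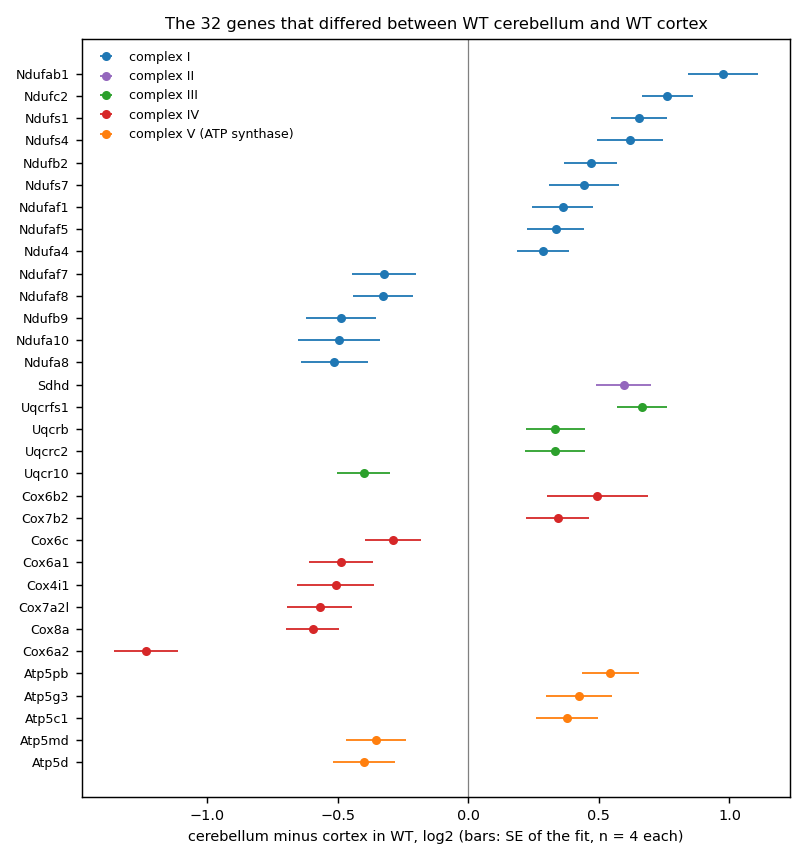
Difference of WT cerebellum minus WT cortex on the log2 scale (horizontal axis) for the 32 genes that passed the test, grouped by complex (colours) down the page. Points are differences of means of 4 arrays and bars are SEs of the fit. Complex I runs from 0.97 for Ndufab1 to -0.51 for Ndufa8, and Cox6a2 of complex IV is furthest from 0 at -1.24.

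In complex I, 9 of 46 genes were higher and 5 lower in WT cerebellum than in WT cortex, against 19.1% and 16.6% of all rows. Ndufab1, the mitochondrial acyl carrier protein and a subunit of complex I, read 12.01, 11.86, 12.05 and 12.07 in cerebellum against 11.01, 11.25, 10.64 and 11.20 in cortex. The groups were well apart, with WT 3 of the cortex the lowest array, and the difference of 0.97 ± 0.14 corresponds to a 1.97-fold level (adjusted p = 1.91e-06, limma). Ndufc2, a membrane arm subunit, was higher by 0.76 ± 0.10, Ndufs1, the largest iron-sulfur subunit, by 0.65 ± 0.11, and Ndufs4 by 0.62 ± 0.13. Lower in cerebellum were Ndufa8 by -0.51 ± 0.13, Ndufa10 by -0.50 ± 0.16 and Ndufb9 by -0.49 ± 0.13. Genes of complex I thus lay on both sides between these regions, as rows of the whole table did.

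In complex II, Sdhd, a membrane anchor, was the only gene that passed. It read 12.09, 11.84, 11.9985 and 12.07 in WT cerebellum against 11.50, 11.54, 11.14 and 11.44 in WT cortex, and 11.91, 11.93, 11.79 and 11.80 in WT hippocampus. Both other regions lay above cortex in every array, and the difference between cerebellum and cortex was 0.59 ± 0.10 (adjusted p = 4.94e-05, limma). In complex III, Uqcrfs1 read 11.91, 11.98, 11.98 and 12.03 in WT cerebellum against 11.22, 11.36, 11.23 and 11.42 in WT cortex, a difference of 0.67 ± 0.10 (adjusted p = 3.72e-06, limma). Uqcrb, the ubiquinone-binding protein, and Uqcrc2 were higher in cerebellum by 0.33 ± 0.11 each, while Uqcr10, a small subunit, was lower by -0.40 ± 0.10.

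Complex IV held the gene that differed most between the regions. Cox6a2, the heart and muscle isoform of subunit VIa, read 9.04, 9.38, 9.29 and 9.14 in WT cerebellum against 10.63, 10.40, 10.44 and 10.32 in WT cortex, and 10.23, 10.07, 10.38 and 10.32 in WT hippocampus. Every cerebellum array lay below every array of the other regions. The difference from cortex was -1.24 ± 0.12, a 0.425-fold level (adjusted p = 6.72e-09, limma), and that from hippocampus was -1.04 ± 0.12. Its widely expressed counterpart Cox6a1 was also lower in cerebellum than in cortex, by -0.49 ± 0.12. Cox8a was lower by -0.60 ± 0.10, Cox7a2l by -0.57 ± 0.12, Cox4i1 by -0.51 ± 0.15 and Cox6c by -0.29 ± 0.11, while the testis isoforms Cox6b2 and Cox7b2 were higher by 0.49 ± 0.19 and 0.34 ± 0.12. In complex V, Atp5pb was higher in WT cerebellum by 0.54 ± 0.11, Atp5g3 by 0.42 ± 0.13 and Atp5c1, the rotating gamma subunit, by 0.38 ± 0.12. Atp5d, the delta subunit at its foot, was lower by -0.40 ± 0.12 and Atp5md by -0.35 ± 0.12.

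In the same comparison in the KO animals, the group means share no array with those in WT. The tests of both comparisons use 1 spread per gene from all 24 arrays. Of the 18 genes higher in WT cerebellum, 18 had a higher mean in KO cerebellum than in KO cortex and 16 passed there. Of the 14 lower in WT cerebellum, 13 had a lower mean in KO and 2 passed, Cox6a2 and Cox8a. How often all rows that passed in WT did so again in KO is not given here. Nor is this repeat given without KO 3 of the cerebellum. In KO, 25 genes were higher and 2 lower in cerebellum, against 17.9% and 14.1% of all rows. Without KO 3 of the cerebellum, 19 were higher and 6 lower, against 18.2% and 14.8% (33.1% together) of all rows, and without KO 1 and KO 4 of the cortex 22 were higher and 1 lower, against 16.7% and 12.2%. Cox6a2 read 9.30, 9.18, 8.97 and 9.06 in KO cerebellum against 10.10, 10.27, 10.55 and 10.06 in KO cortex, a difference of -1.12 ± 0.12. Across the 93 genes the differences in KO and in WT had a Pearson correlation of 0.879 and a Spearman correlation of 0.855, against a Pearson correlation of 0.936 across all rows. Genes are not independent replicates, and all points of an axis share the same 8 arrays.

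**Figure D5:**
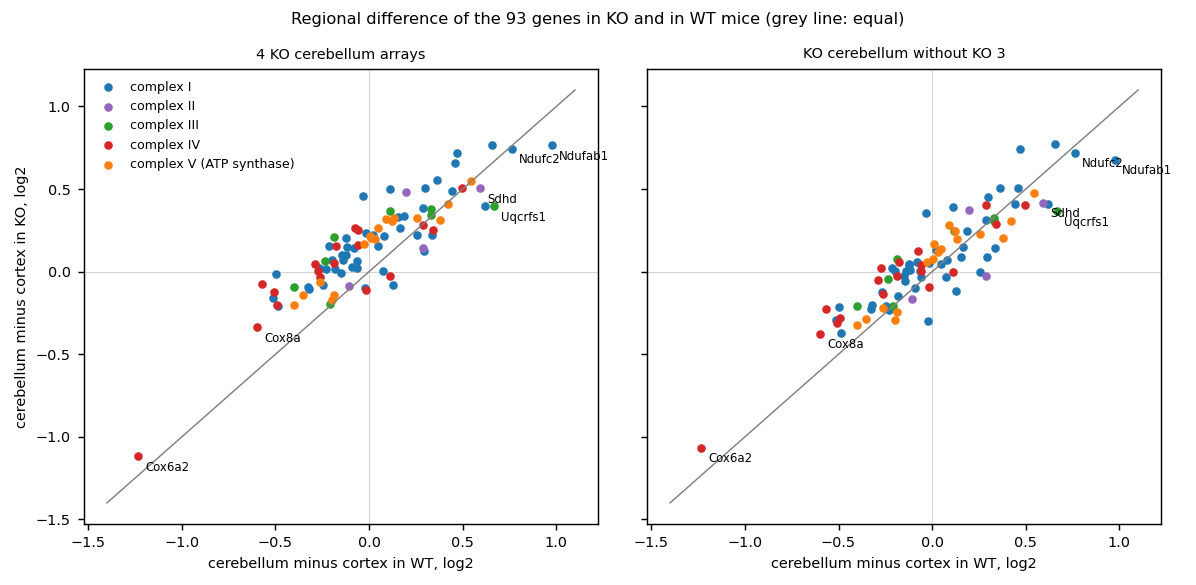
Difference of cerebellum minus cortex on the log2 scale in KO (vertical axis) against the same difference in WT (horizontal axis) for the 93 genes, with all 4 KO cerebellum arrays on the left and without KO 3 on the right. Points are genes coloured by complex and the grey line marks equal differences. With KO 3 most points lie above the line, with a median gap of 0.195 (KO minus WT), and Cox6a2 lies at the lower left in both panels.

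In WT, cerebellum and hippocampus differed for 32 of 93 genes, against 34.8% of all rows, with 9 higher in cerebellum, against 17.5% of all rows, and 23 lower, against 17.2% of all rows. After another quantile normalization the split was 13 higher and 17 lower, and with arrays centred on their medians 10 higher and 18 lower. The number of lower genes thus depended on the scaling, and shares of all rows under these scalings are not given here. Ndufc2, Ndufab1 and Ndufs4 were higher in cerebellum by 0.60 ± 0.10, 0.58 ± 0.14 and 0.49 ± 0.13. Lower were Ndufa10 by -0.70 ± 0.16, Atp5md by -0.68 ± 0.12, Ndufb9 by -0.66 ± 0.13, Cox7a2l by -0.60 ± 0.12 and Atp5d by -0.59 ± 0.12. Atp5md read 15.08, 15.08, 15.43 and 15.14 in WT cerebellum against 15.90, 15.81, 15.85 and 15.87 in WT hippocampus, with no overlap. In KO, 18 genes were higher and 3 lower in cerebellum than in hippocampus, against 16.6% and 14.6% (31.2% together) of all rows. Without KO 3 these were 13 and 13, against 17.5% and 16% of all rows.

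Hippocampus and cortex of WT were closer, with 4 of 93 genes higher in hippocampus and 0 lower, against 4.04% and 2.97% of all rows. The 4 genes were Sdhd with a difference of 0.45 ± 0.10, Ndufs7, which carries the last iron-sulfur cluster before ubiquinone, with 0.45 ± 0.13, Atp5pb with 0.37 ± 0.11 and Uqcrfs1 with 0.36 ± 0.10. Of the 93 genes, 70 had a higher mean in WT hippocampus, with a median of 0.12, and without WT 3 of the cortex the count of genes that passed was 1 and the median 0.06. The count was also 1 without WT 1 of the hippocampus, and 2 without WT 2 of either region. Shares of all rows without these arrays are not given here. In KO animals 0 of 93 genes passed, against 3.75% and 3.03% of all rows that were higher and lower, and 2, Sdhd and Ndufaf1, were higher at an unadjusted p under 0.05, against 10.3% of all rows that were higher and 8.37% that were lower. Across the 93 genes the differences in KO and in WT had a Pearson correlation of 0.246, against 0.752 across all rows.

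Genes around the respiratory chain were counted in the same fits. Of 47 listed genes for cytochrome c and assembly factors 40 were measured, of 19 for the tricarboxylic acid cycle 18, and of 19 for mitochondrial biogenesis 17. Between KO and WT, 0 genes of these lists passed in cortex, hippocampus or cerebellum. Their median differences in the cerebellum were 0.07, 0.14 and -0.03, in that order of lists, and 0.05, 0.09 and 0.08 without KO 3. In WT cerebellum against WT cortex, 8 assembly genes were higher and 2 lower, 9 genes of the tricarboxylic acid cycle were higher and 0 lower, and 9 biogenesis genes were higher and 0 lower, where 19.1% of all rows were higher and 16.6% lower. Among the last, Polg2, an accessory subunit of the polymerase of mitochondrial DNA, was higher by 1.71 and the coactivator Ppargc1b by 1.32. Cox20, a chaperone for assembly of complex IV, was higher by 1.29.

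Promoters of respiratory chain genes are known for binding sites of nuclear respiratory factor NRF1, of ETS factors such as GABP and of YY1, so their letters were counted in the 300 bases around each start (250 before and 50 after, RefSeq, GRCm38.p6). Of the 93 genes, 77 had 82 such windows, and all array genes together had 19143. The letters GCGCA followed directly by their reverse complement, an NRF1 motif, stood in 8.54% of the 82 windows against 1.41% of all, on either strand. A looser NRF1 form, GCGCA, any letter, then GCGC, which includes the first, stood in 24.4% against 6.77%. The ETS letters CCGGAAG stood in 23.2% against 11.8%, and the YY1 letters AAGATGGC in 13.4% against 3.1%. CCAAT stood in 42.7% against 37.9% and TATAAA in 11% against 12.3%. Of the genes higher in WT cerebellum than in WT cortex, 15 of 18 had a window and 4 of these held the looser NRF1 form, while of the lower ones 10 of 14 had a window and 2 held it. The ETS letters stood in 2 of these 15 higher genes and 4 of these 10 lower genes, and the YY1 letters in 3 and 1. These matches are descriptions of letters, not of binding.

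The windows below are of genes described above, 1 or more for each of the motifs: Sdhd and Atp5pb, higher in WT cerebellum than in WT cortex, Cox8a, lower there, and Atp5o, named for KO cerebellum. Each is written 5′ to 3′ on the strand of the gene, with matches to the looser NRF1 form, CCGGAAG or AAGATGGC on either strand in capitals. In Sdhd the first match is to the NRF1 letters and the second to the ETS letters, in Atp5o the match is to the NRF1 letters, in Atp5pb to the YY1 letters, and in Cox8a both are to the ETS letters.
Sdhd, chr9:50603800-50604099, minus strand: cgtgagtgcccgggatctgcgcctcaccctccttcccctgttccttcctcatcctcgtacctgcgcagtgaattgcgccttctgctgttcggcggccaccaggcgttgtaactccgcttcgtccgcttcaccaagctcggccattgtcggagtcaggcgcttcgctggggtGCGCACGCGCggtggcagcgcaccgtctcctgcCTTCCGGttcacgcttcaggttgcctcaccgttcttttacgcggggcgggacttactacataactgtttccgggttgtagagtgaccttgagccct
Atp5o, chr16:91931581-91931880, minus strand: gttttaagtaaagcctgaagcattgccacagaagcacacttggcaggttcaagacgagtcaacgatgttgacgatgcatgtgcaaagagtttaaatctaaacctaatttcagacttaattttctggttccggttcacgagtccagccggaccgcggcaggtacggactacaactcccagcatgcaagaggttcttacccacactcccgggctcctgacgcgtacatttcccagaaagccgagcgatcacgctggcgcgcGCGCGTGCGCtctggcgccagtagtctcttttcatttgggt
Atp5pb, chr3:105959214-105959513, minus strand: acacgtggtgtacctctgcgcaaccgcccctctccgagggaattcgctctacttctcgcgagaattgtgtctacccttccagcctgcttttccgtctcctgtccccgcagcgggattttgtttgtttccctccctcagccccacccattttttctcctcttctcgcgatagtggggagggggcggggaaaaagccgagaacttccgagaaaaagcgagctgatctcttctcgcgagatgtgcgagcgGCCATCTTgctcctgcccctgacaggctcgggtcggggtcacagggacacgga
Cox8a, chr19:7217567-7217866, minus strand: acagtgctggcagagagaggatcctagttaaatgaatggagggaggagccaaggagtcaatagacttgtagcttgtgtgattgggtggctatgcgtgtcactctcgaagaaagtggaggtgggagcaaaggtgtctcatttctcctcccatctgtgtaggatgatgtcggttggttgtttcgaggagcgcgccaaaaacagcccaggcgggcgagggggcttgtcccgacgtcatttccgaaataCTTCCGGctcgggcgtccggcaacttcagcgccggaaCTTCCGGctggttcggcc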

How the data were processed

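Total RNA of 24 brain samples was measured on single-channel mouse expression arrays. The authors deposited log2 values, made with RMA per the submitters' processing notes; its version and settings, and the labelling chemistry, on which the labels' fields differ, are not stated in the sources at hand. These deposited log2 values were used without further scaling or filtering. Of 22206 rows, 19572 had a gene, named by the platform annotation, and 2634 were left out.

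Groups came from the labels' region, genotype and animal number, and replicates are separate animals, each sampled in 3 regions. limma 3.58.1 (R 4.3.3, statmod 1.5.0) fitted 1 mean per group over 24 arrays (lmFit, eBayes), with Benjamini-Hochberg adjustment over 19572 rows and a threshold of 0.05. A difference between regions in the KO effect was tested with F, and the effect over regions was fitted on the means of 8 animals. Precision is limited by the 4 arrays per group. The row of the deleted gene is not reported here.

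Same-animal deviations correlated between regions at -0.191 to 0.297, with 6 of 24 above 0.1, and animals that share a number across KO and WT are different mice. The members and gene lists were chosen with earlier results of these data known, and the 8 isoforms after their values were seen. Genes were named by a rule: in each KO comparison the 2 of smallest p per complex and any that passed; in each WT region comparison the 2 furthest up and 2 furthest down per complex among those that passed; the Sdh subunits; isoform pairs; and Cox5a, Uqcrc1, Cox6c and Atp5o. Ndufs1, Ndufa5, Ndufaf1, Ndufaf4, Ndufaf5, genes named because their groups did not overlap, and the named genes of related lists lie outside it and were chosen after their values were seen. Not all genes under the rule have their differences printed, and few or none do for the hippocampus and the animal means. The alternatives were quantile normalization, array-median centring, leaving out rows below the 0.25 quantile of row means, array weights, row means per symbol, a fit of 8 arrays, animal and replicate blocks, a 2-fold minimum and leaving out arrays. The fit was tested on simulated data.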

Additional observations from a re-analysis of the deposited data

Results flagged for a closer look

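In 1 of 36 groups of complex means and 20 of 306 groups of named genes, 1 of 4 arrays lay far from the others, with its gap to the nearest array over the whole range above Dixon's 95% critical value. Chance gives about 1 in 20 such groups. Array KO 3 of the cerebellum was that array for 5 genes. Cox6c was 16.37 in KO cerebellum 3, against 15.96 to 16.004 in the other 3 arrays. Ndufa4 was 16.02 in KO cerebellum 3, against 15.71 to 15.76 in the other 3 arrays. Ndufaf2 was 10.16 in KO cerebellum 3, against 9.70 to 9.77 in the other 3 arrays. Ndufb9 was 14.64 in KO cerebellum 3, against 13.94 to 13.99 in the other 3 arrays. Uqcrc1 was 12.37 in KO cerebellum 3, against 11.81 to 11.87 in the other 3 arrays.

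The other arrays that lay apart were spread over the groups. The mean of complex II was 11.67 in WT hippocampus 4, against 11.56 to 11.57 in the other 3 arrays. Atp5g3 was 13.18 in WT cortex 2, against 13.56 to 13.63 in the other 3 arrays. Atp5h was 16.0033 in KO hippocampus 4, against 16.09 to 16.11 in the other 3 arrays. Atp5pb was 13.36 in WT hippocampus 3, against 13.51 to 13.54 in the other 3 arrays. Cox6b1 was 12.80 in KO cortex 2, against 12.96 to 12.98 in the other 3 arrays. Cox6b2 was 7.84 in KO cortex 1, against 7.28 to 7.37 in the other 3 arrays. Cox7a1 was 7.76 in KO cortex 4, against 7.57 to 7.60 in the other 3 arrays. Cox7a2 was 11.13 in WT cortex 3, against 11.67 to 11.73 in the other 3 arrays. Cox8a was 16.16 in KO cortex 4, against 15.98 to 15.996 in the other 3 arrays. Cox8a was 15.69 in WT cerebellum 3, against 15.41 to 15.45 in the other 3 arrays. Cox8b was 7.42 in KO cerebellum 2, against 7.13 to 7.15 in the other 3 arrays. Ndufaf3 was 9.72 in WT cerebellum 3, against 9.56 to 9.59 in the other 3 arrays. Sdha was 10.11 in WT cortex 1, against 10.38 to 10.42 in the other 3 arrays. Sdhc was 11.15 in KO hippocampus 2, against 11.285 to 11.29 in the other 3 arrays. Uqcrb was 15.38 in WT cortex 3, against 15.67 to 15.68 in the other 3 arrays. Uqcrb was 15.88 in KO cerebellum 4, against 16.10 to 16.13 in the other 3 arrays.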

How the results depend on the processing

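With a minimum of 2-fold, the genes that passed numbered 0 for hippocampus against cortex, 1 for cerebellum against cortex and 1 for cerebellum against hippocampus in WT, and 1 and 1 for the cerebellum comparisons in KO. After quantile normalization 1 gene passed for hippocampus against cortex in WT, where leaving out 1 array gave 1 to 4 genes and medians of 0.059 (without WT cortex 3) to 0.15. Leaving out 1 array gave 23 to 31 genes for cerebellum against cortex and 25 to 31 for cerebellum against hippocampus in WT, and 20 to 26 and 15 to 26 in KO. With the number as a replicate block, 0 genes passed between KO and WT in cortex, hippocampus or cerebellum, as without it. With the animal as a random replicate block, 4, 32 and 32 genes passed in WT and 0, 27 and 21 in KO, for the region comparisons in the same order. The difference of Sdha, KO against WT in hippocampus, ranged from -0.0373 to 0.105 when 1 array was left out, at -0.0373 without WT 2 and -0.0359 without KO 3. That of Sdhb, KO against WT in cerebellum, was -0.000708 without KO 3 and WT 2, a setting chosen after seeing the data, as was leaving out KO 1 and KO 4 of the cortex between regions in KO. The causes were not tested. Of the other values for named genes, 951 kept direction and side of the threshold and 41 kept direction but no longer passed.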
